A study of Papio anubis with 40 samples.

Results

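The fragments described here are sequence variants of the long 5' fragments of glycine tRNA-GCC in baboon serum: fragments of 25 to 36 nt that keep the main Gly-GCC opening except in 1 block of 5 bases. A fragment's code writes 2 characters per 5 bases, and a variant was taken where either bases 1 to 5 or bases 11 to 15 differ from the main code P4R8YP9L while the rest of the first 20 bases is the same. This rule, which uses sequence and length only, picked 515 of the 58587 fragments in the table, with 920213 of 130892201 counts (0.703%). Grouped by the first 6 code characters, they have 46 different starts. The main sequence, set beside them throughout, has 228 fragments and 4033827 counts (3.08%).

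The libraries come from olive baboons (Papio anubis), 8 animals, each sampled at 5 draws (0.5 mL of serum per library, 40 libraries). Draws were made at month 3, 6, 9 and 15 after menstrual tissue had been placed in the peritoneal cavity to induce endometriosis, and at month 0, before inoculation, when the same animals had no induced disease. The design asks how circulating tRNA fragments at each later month differ from each animal's own month 0. The labels give no drug treatment for any animal and no animal without inoculation, so month, disease and age cannot be told apart.

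A tRNA is cleaved in or near its anticodon loop under stress and during normal turnover, and the 5' piece is stable enough to circulate in serum. Fragments of glycine and glutamate tRNAs are among the abundant ones in mammalian serum. The first bases of a tRNA pair with its last bases to form the acceptor stem, and the bases of the third block lie in the D arm. In the human genome, tRNA-Gly-GCC genes occur with both of the 2 openings that lead the list below, the main one and the one with T as base 5. Baboon tRNA genes were not used here.

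The most abundant fragment of the main start and of the 16 variant starts with the highest counts is shown first, because the results turn on which base differs. All are 30 nt, from the deposited table, written 5' to 3'. Capitals mark bases that differ from the main sequence, and a token such as G5T gives the main base, the position counted from 1 at the 5' end, and the variant base.
main P4R8YP: gcatgggtggttcagtggtagaattctcgc
PNR8YP, G5T: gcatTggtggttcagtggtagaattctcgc
04R8YP, G1A: Acatgggtggttcagtggtagaattctcgc
PYR8YP, A3C: gcCtgggtggttcagtggtagaattctcgc
P4R84P, T11C: gcatgggtggCtcagtggtagaattctcgc
PKR8YP, T4G: gcaGgggtggttcagtggtagaattctcgc
P4R88P, T12C: gcatgggtggtCcagtggtagaattctcgc
PHR8YP, T4C: gcaCgggtggttcagtggtagaattctcgc
P4R8YS, A14C: gcatgggtggttcCgtggtagaattctcgc
P4R8Y8, A14G: gcatgggtggttcGgtggtagaattctcgc
P4R8ZP, C13T: gcatgggtggttTagtggtagaattctcgc
PLR8YP, G5A: gcatAggtggttcagtggtagaattctcgc
Q4R8YP, A3G: gcGtgggtggttcagtggtagaattctcgc
S4R8YP, C2T: gTatgggtggttcagtggtagaattctcgc
84R8YP, G1T: Tcatgggtggttcagtggtagaattctcgc
P3R8YP, T4G and G5T: gcaGTggtggttcagtggtagaattctcgc
0NR8YP, G1A and G5T: AcatTggtggttcagtggtagaattctcgc
PZR8YP, A3C and G5T: gcCtTggtggttcagtggtagaattctcgc

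The Gly-GCC label was checked in fragments of at least 35 nt, which reach the anticodon. Variants of 35 and 36 nt among them are members, and those of 37 nt or more are not. The 2 most abundant, of 52 nt, are shown with the anticodon, bases 33 to 35, in capitals and with no capital elsewhere.
PNR8YP start, 52 nt: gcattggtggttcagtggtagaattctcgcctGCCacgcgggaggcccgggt
main start, 52 nt: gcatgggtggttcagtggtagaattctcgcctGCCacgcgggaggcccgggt
Of 3211 reads of at least 35 nt with the PNR8YP start, 3202 read GCC (99.7%), and 3 read CCC, the anticodon of another glycine tRNA. Among reads with the main start, 2097 of 2108 read GCC (99.5%). The other 45 starts had 142 such reads, in 24 starts, and all 142 read GCC. For the remaining 21 starts no read reached the anticodon. Of the 3211 PNR8YP reads, 3169 were of 37 nt or more and are not members. Fragments of 30 nt, which held 79.6% of PNR8YP counts, end before the anticodon. In every start, the label of members that end before base 33 rests on their own bases. Which anticodon their source tRNA had was not tested. Markers of cell types could not be checked, because the table lists tRNA fragments only, and a lower release of fragments cannot be told apart from fewer releasing cells.

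The 40 libraries held a median of 3269164 counts, with 198840 in the smallest (month 0 of PA8001) and 6245450 in the largest. Variant fragments took between 0.314% and 1.43% of a library's counts. CPM are counts scaled to 1 shared library size by sequencing depth and by a normalization factor for each library (TMM). These factors ran from 0.458 to 1.93, so CPM values do not follow depth alone. A count of 3 was taken as the limit that a count of 0 allows. This count equals 0.568 CPM in the deepest library to 7.82 CPM in the shallowest. These limits cover counting error only. The month 0 library of PA8001, the shallowest, held 736 variant counts and 1346 main counts.

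One start stood far above the rest. PNR8YP, which carries G5T, had 177 fragments and 694694 counts, 75.5% of all variant counts and equal to 17.2% of the main start's counts. Its next most abundant neighbour, 04R8YP (G1A), had 34598 counts, or 0.858% of the main start's. PYR8YP (A3C) followed with 24875 counts (0.617%), P4R84P (T11C) with 21405 (0.531%) and PKR8YP (T4G) with 18129 (0.449%). P4R88P (T12C), PHR8YP (T4C) and P4R8YS (A14C) lay between 0.410% and 0.338%. The 45 starts other than PNR8YP had 338 fragments and 225519 counts together, mostly 8 to 11 fragments each.

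Around the main starts of Gly-CCC, Glu-CTC and Val-AAC/CAC, every single-base change in bases 1 to 5 and 11 to 15 was in the table. The variants cover the same bases around the main Gly-GCC start as fully. All 30 possible single-base changes in bases 1 to 5 and 11 to 15 were in the table, 1 start each, and only PNR8YP among them exceeded 1% of the main start. The other 29 had 204754 counts, from 0.00119% of the main start (P4R8Y5, G15C) to 0.858% (04R8YP). Of these, 13 were above 0.1% and 12 below 0.015%. The remaining 16 starts differ from the main one at 2 bases: 12 hold G5T plus another change in bases 1 to 4, with 20748 counts, and 4 hold G5A plus another change, with 17 counts.

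In the deposited counts PNR8YP also differed from the other starts in what lies behind it. Of its 177 fragments, 12 carry G5T and no other difference, 1 for each length of 25 to 36 nt, and these took 679981 counts (97.9%). The other 165 lie 1 base off that sequence, so PNR8YP has a cloud of single-base variants of its own. Over all starts, 14 fragments with 39 counts lay 2 or more bases from both the main and the G5T sequence. Each of these 14 has G5A. The 10 fragments of 04R8YP, for example, held 0 with a further difference. The mismatches allowed when reads were matched are not known, and a limit on them could set which starts show such a cloud. Whether the contrast is a trait of PNR8YP was not tested.

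The changes were uneven over positions and kinds. Single-base changes other than G5T summed to 1.03% of the main start's counts at base 1, 0.848% at base 4 and 0.790% at base 3, against 0.184% at base 2 and 0.244% at base 5. In the third block they ran from 0.5995% at base 14 and 0.545% at base 11 to 0.134% at base 15. Base 6, in a block that the rule does not cover, reached 0.717%. Transitions (A with G, C with T) are 10 of the 29 changes other than G5T and made up 63.9% of their counts. In the blocks outside the rule, transitions made up 87.8% of the counts of single-base changes.

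The same blocks were counted around the main starts of 3 other tRNAs as a background. Around the main Gly-GCC start, single-base changes equalled 3.09%, 1.53%, 1.98% and 1.30% of its counts in blocks 1 to 4, with G5T left out of block 1. Around the Gly-CCC start they equalled 1.60%, 1.91%, 1.89% and 1.43%, and around Glu-CTC 2.90%, 1.4996%, 2.57% and 1.29%. Around Val-AAC/CAC the first 3 blocks were at 0.518% to 0.883%, and block 4 was at 9.54%, of which 9.06% lay at base 16. The share at a single base that G5T reached at base 5 of Gly-GCC thus has no counterpart in these 3 tRNAs except that base of the valine one.

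The 12 changes that stood both beside G5T and alone were compared as shares of their own background. G1A was at 0.773% of PNR8YP counts where it stood next to G5T (0NR8YP), against 0.858% of main counts where it stood alone (04R8YP), higher next to G5T in 10 of 40 libraries. A3C was at 0.575% next to G5T (PZR8YP) and 0.617% alone (PYR8YP), higher next to G5T in 11 of 40, and T4C at 0.381% next to G5T (PIR8YP) and 0.390% alone (PHR8YP), higher in 18 of 40. Other changes lay further apart. T4G had 0.824% next to G5T (P3R8YP) and 0.449% alone (PKR8YP), and it was higher next to G5T in 40 of 40 libraries. G1T had 0.185% next to G5T (8NR8YP) and 0.159% alone (84R8YP), higher in 31 of 40. A3G and C2T went the other way. A3G was at 0.0975% next to G5T (QNR8YP) and 0.172% alone (Q4R8YP), higher next to G5T in 1 of 40 libraries, and C2T at 0.124% next to G5T (SNR8YP) and 0.168% alone (S4R8YP), higher in 3 of 40. The other 5 changes had 11 to 89 counts next to G5T, and their share there was 0.283 to 1.25 times that on the main sequence. These shares come from the same libraries and are given as a description, with no test.

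**Figure D1:**
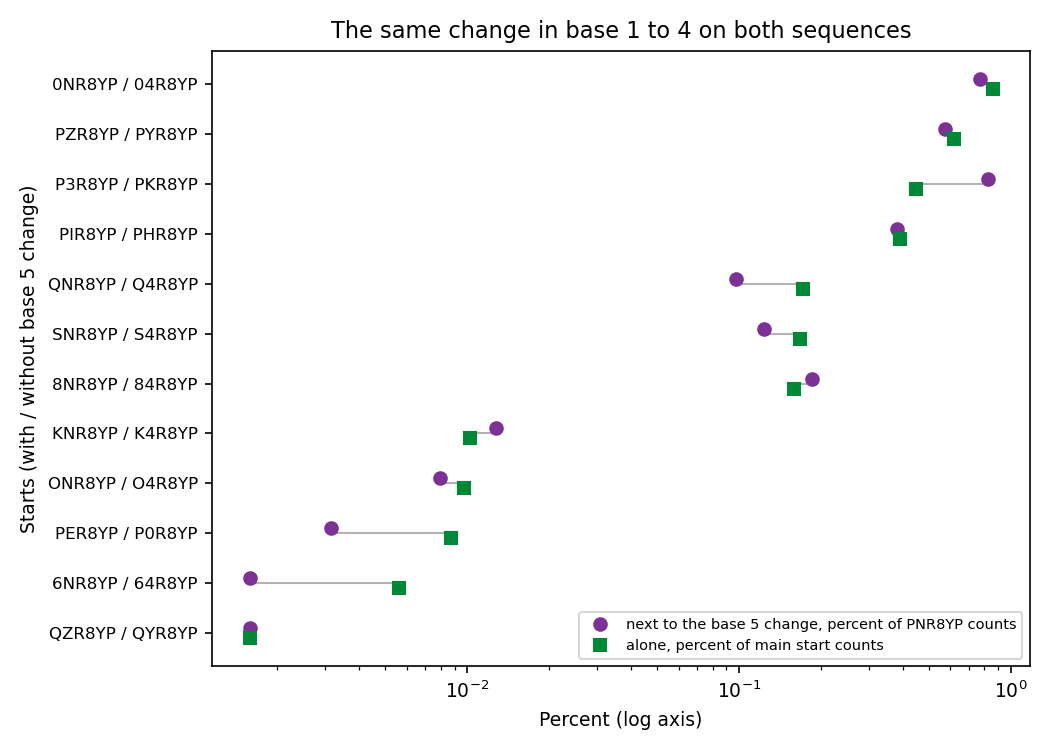
Each row is a change at bases 1 to 4, named by its 2 start codes. Circles give its counts next to the base 5 change as a percent of PNR8YP counts and squares its counts alone as a percent of main start counts, 40 libraries summed, log axis. The 2 marks lie close together for 0NR8YP / 04R8YP, PZR8YP / PYR8YP and PIR8YP / PHR8YP and apart for P3R8YP / PKR8YP, at 0.824% and 0.449%.

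Fragment length split the variants along the same line. Fragments of 30 nt took 79.6% of PNR8YP counts and 70.7% of main counts, and fragments of 27 nt took 1.57% of PNR8YP counts and 6.84% of main counts. The 27 nt share of PNR8YP was below that of the main start in 40 of 40 libraries. The 12 starts with G5T plus another change had the PNR8YP profile, with 79.1% at 30 nt and 1.71% at 27 nt. The 29 starts with a single change other than G5T had the main profile, with 70.8% at 30 nt and 6.83% at 27 nt. Between these last 2 sets, the 27 nt share was lower with G5T in 39 of 40 libraries.

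**Figure D2:**
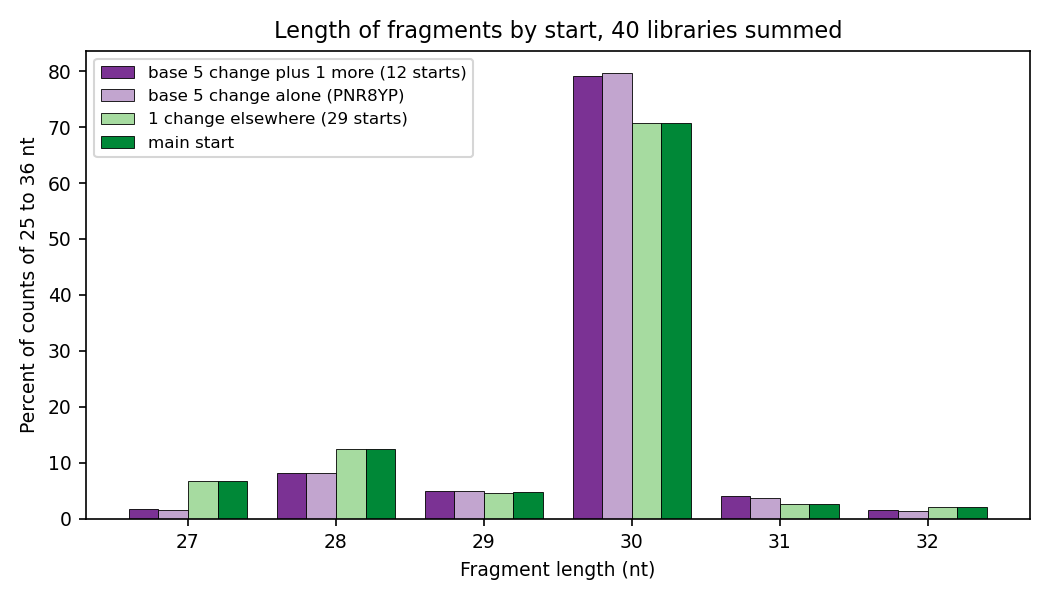
Percent of counts of 25 to 36 nt at each length from 27 to 32 nt, 40 libraries summed. Purple bars are starts with the base 5 change (with 1 more change, then alone), green bars those without it (1 change elsewhere, then the main start), and bars of one colour family match each other, at 79.1% and 79.6% against 70.8% and 70.7% at 30 nt.

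The longer reads showed the same difference. Per 1000 counts of 25 to 36 nt, PNR8YP had 4.56 counts of 37 nt or more and the main start 0.510. Most of these were 52 nt, with 2818 counts for PNR8YP and 1725 for the main start. These fragments end beyond the anticodon and are not members.

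The level of PNR8YP relative to the main start varied widely between libraries. It had a lowest value of 7.79% of the main start's counts, a median of 17.8% and a highest value of 79.4% over the 40 libraries. The monthly medians were 21.9% at month 0, 17.3% at month 3, 13.2% at month 6, 15.3% at month 9 and 21.0% at month 15. The 8 values spanned 16.6% to 37.7% at month 0 and 10.2% to 29.999% at month 15, so the months overlapped. PNR8YP was lower relative to the main start than at the animal's own month 0 in 6 of 8 animals at months 3, 6 and 15 and in 7 of 8 at month 9.

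PA8001 stood apart in this ratio. Its PNR8YP start was at 31.1%, 15.5%, 63.2%, 79.4% and 29.999% of the main start at months 0, 3, 6, 9 and 15. The other 7 animals lay at 7.79% to 18.8% at month 6 and at 9.56% to 19.9% at month 9. The main start of PA8001 had 13286 counts at month 6 and 28066 at month 9, against 8400 and 22298 for PNR8YP. Animal medians over the 5 draws ran from 12.2% (PA8872) to 31.1% (PA8001), a 2.54-fold span, while the 5 draws of a single animal spanned a median of 2.60-fold. Medians of 5 draws vary less than single draws, so these spans are unlike measures and do not show whether animals differ more than draws do.

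04R8YP behaved differently in that animal. It was at 9.36% of the main start in the month 0 library of PA8001, 126 counts against 1346, and at 0.460% to 1.40% in the other 7 month 0 libraries. At month 9 it was at 0.306% in PA8001, the lowest of all 40 libraries. Over all libraries its median was 0.999%, and it was the most abundant of the 45 starts other than PNR8YP in 33 of 40 libraries. PYR8YP led in 5, and PKR8YP and P4R84P in 1 each.

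**Figure D3:**
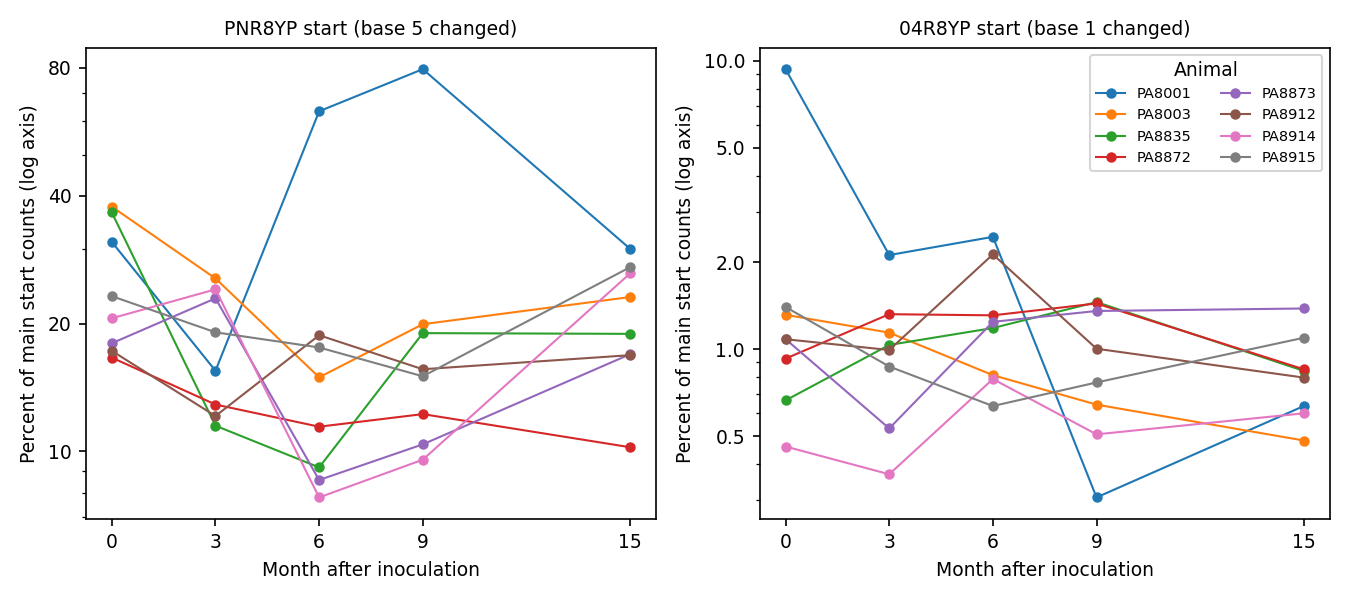
Counts of PNR8YP (left) and 04R8YP (right) as a percent of main start counts by month after inoculation, log axes, 1 line per animal, 8 animals. PA8001 lies above all others for PNR8YP at months 6 and 9 (63.2% and 79.4%) and for 04R8YP at month 0 (9.36%).

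The other single-base changes were summed in each library. The summed single-base changes in both blocks, without G5T, equalled 2.85% to 18.7% of the main start's counts, with a median of 5.89%. The same sum ran from 1.64% to 13.2% around Gly-CCC, from 2.54% to 12.9% around Glu-CTC and from 0.839% to 2.74% around Val-AAC/CAC. Of the 10 libraries with the highest Gly-GCC value (7.79% or more), 10 were among the 10 highest for Gly-CCC, 9 for Val-AAC/CAC and 9 for Glu-CTC. Of the 10 lowest (4.29% or less), 9, 8 and 9 were among the 10 lowest for those 3 tRNAs. Single starts within the sum could differ: in PA8915 at month 9, PKR8YP was at 0.0925% of the main start, its lowest value over the 40 libraries, and P4R84P at 0.416%. The PNR8YP ratio did not order the libraries in this way: 4 of the 10 highest libraries and 1 of the 10 lowest were also at that end for PNR8YP.

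Depth and the level of the main start, the denominator, moved with this sum. Of the 10 libraries with the highest sum, 7 were among the 10 with the lowest totals, and none had over 2460164 counts. The 10 with the lowest sum had 2740510 counts or more, and 5 of them were among the 10 deepest. Of the same 10 highest libraries, 7 were among the 10 with the fewest main start counts and 6 among the 10 with the lowest main share of all counts. Of the 10 lowest, 6 were among the 10 with the most main start counts and 4 among the 10 with the highest main share. The part of depth or of the main start's level in the sum was not tested. The monthly medians of the sum were 5.56% at month 0, 6.54% at month 3, 5.77% at month 6, 5.15% at month 9 and 5.64% at month 15, and the ranges of the 5 months overlapped.

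**Figure D4:**
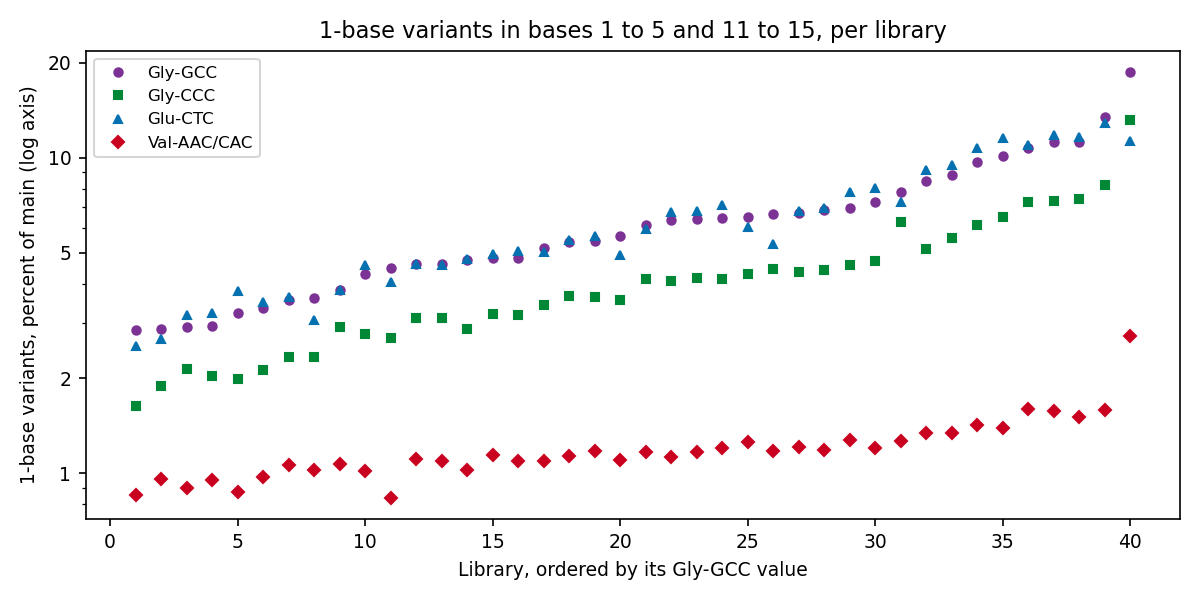
Single-base changes in bases 1 to 5 and 11 to 15, summed and given as a percent of the main start of the same tRNA (log axis), in 40 libraries ordered by the Gly-GCC value, G5T left out. The points of Gly-CCC, Glu-CTC and Val-AAC/CAC climb with those of Gly-GCC, which run from 2.85% to 18.7%.

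Levels over time were tested for single fragments with edgeR's quasi-likelihood test on all 2447 fragments that passed the filter on low counts, with animal as a block and Benjamini-Hochberg adjusted p under 0.05 as passing. Of the 515 variants, 116 passed that filter, 23 with the PNR8YP start and 93 of other starts, and these held 98.7% of variant counts. The other 399 were too low to test, among them 80 with a single count in all. The comparisons with month 0 share the month 0 libraries, and those of month 15 share the month 15 libraries. The block removes differences in level between animals, so each p-value sets the change within animals against the spread left after animal and month. Each animal has a single library per month, so that spread mixes variation of the animals' responses with variation of the libraries.

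Against month 0, no variant passed at month 3, 6 or 9. The percentage of all tested fragments called was 0% in each of these comparisons. At an unadjusted p under 0.05 there were 4, 33 and 11 of the 116 variants at months 3, 6 and 9, of 73, 310 and 201 among all fragments tested. DESeq2 called 0, 5 and 0 variants, where it called 0%, 0.695% and 0% of all fragments, and limma-voom called none of the 2447. The fragment tRF-30-PNR8YP9LON4V, the most abundant variant, had 1565 to 8506 CPM at month 3, 1497 to 4245 CPM at month 6 and 1054 to 9881 CPM at month 9, against 792 to 8733 CPM at month 0, with medians of 2814, 3510, 4649 and 4151 CPM in the same order. The groups overlapped at each month.

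Among the variants, month 6 held the most with an unadjusted p under 0.05 against month 0, 33 against 14 at month 15. Over all fragments month 15 held the most, 509 against 310 at month 6. The 3 smallest p-values of variants at month 6 belonged to tRF-30-P4R8ZP9LON4V (C13T), with a log2 fold change of 0.95, tRF-28-PHR8YP9LOND5 (T4C), with 0.91, and tRF-30-PHR8YP9LON4V, with 0.79 and a higher value in 8 of 8 animals. None passed (adjusted p = 0.303 for each). The C13T fragment had 15.7 to 87.6 CPM at month 6, median 57.2, against 10.4 to 47.8 CPM, median 26.0, at month 0. The median log2 fold change over the 116 variants at month 6 was 0.48, against 0.62 for the 54 tested main fragments and 0.01 for all 2447. Over the 23 PNR8YP fragments it was -0.29 and over the other 93 variants 0.58.

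The smallest p-values at months 3 and 9 did not pass either. At month 3 they belonged to tRF-31-0NR8YP9LON4VD (G1A and G5T), with a log2 fold change of -1.34, and to tRF-30-P4R8ZP9LON4V and tRF-28-PYR8YP9LOND5 (A3C), each with 0.61 (adjusted p = 0.999 for the 3). At month 9 they belonged to tRF-32-PNR8YP9LON4V3, with -1.16, tRF-30-P4R8ZP9LON4V, with 0.64, and tRF-28-PHR8YP9LOND5, with 0.65 (adjusted p = 0.582 for the 3). Over the PNR8YP fragments the median log2 fold change was -0.12 at month 3 and -0.26 at month 9, against 0.23 and 0.22 over the other variants.

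At month 15 a single variant passed against month 0, 1 of 116 (0.862%), where 2.37% of all tested fragments were called (2.21% higher, 0.163% lower). DESeq2 called 3 variants there (2.59%) and 6.17% of all fragments. The variant that passed in edgeR was tRF-32-P4R84P9LON4V3, which carries T11C and ends 2 bases beyond the 30 nt form shown above. Its sequence and that of its main counterpart, the T11C base in capitals, are these.
tRF-32-P4R84P9LON4V3: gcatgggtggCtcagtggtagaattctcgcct
tRF-32-P4R8YP9LON4V3: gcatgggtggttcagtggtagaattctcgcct
In PA8001, PA8003, PA8872, PA8873, PA8912, PA8914, PA8915 and PA8835 tRF-32-P4R84P9LON4V3 had 29, 15, 12, 20, 9, 12, 38 and 14 counts at month 15, and 0, 1, 13, 9, 5, 8, 9 and 10 counts at month 0. Scaled, that is 7.37 ± 4.18 CPM at month 15 and 1.92 ± 1.52 CPM at month 0 (SD, n = 8 each), higher in 7 of 8 animals, with groups that overlapped. The fragment's medians were 1.97, 2.63, 2.05 and 1.72 CPM at months 0, 3, 6 and 9 and 6.56 CPM at month 15. The low-count filter takes libraries of all months together, so this fragment may have passed it through its month 15 values. Its call is therefore a description only. Its log2 fold change was 1.87 ± 0.46 (SE, edgeR, adjusted p = 0.036). It did not pass without PA8001 (adjusted p = 0.054), PA8003 (0.097), PA8873 (0.105), PA8912 (0.052) or PA8914 (0.130), nor without the month 0 library of PA8001 (0.050112), and the adjusted p ran from 0.0034 to 0.230 over all alternatives. The main counterpart tRF-32-P4R8YP9LON4V3 had a log2 fold change of 1.69 ± 0.53 and did not pass (adjusted p = 0.081).

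Between 28 and 32 nt the median month 15 differences were larger at greater lengths, among variants and main fragments, and lengths outside this range did not follow that order. All 8 tested variants of 32 nt were higher at month 15 than at month 0, with a median log2 fold change of 1.42, and so were all 4 tested main fragments of 32 nt, with 1.25. The low-count filter takes libraries of all months together, so a variant could pass it through its month 15 values. tRF-32-PHR8YP9LON4V3 had medians of 1.92, 1.72, 1.61 and 1.20 CPM at months 0, 3, 6 and 9 and 5.14 CPM at month 15. tRF-32-PNR8YP9LON4V3, by contrast, had 16.1 CPM in its lowest library. For such low variants the direction at month 15 is a description only. At 31 nt 11 of 12 variants were higher, median 0.68, and 6 of 6 main fragments, median 0.70. At 30 nt the medians were 0.24 over 42 variants and 0.34 over 16 main fragments, and at 28 nt 0.04 over 21 variants and 0.08 over 11 main fragments. At 29 nt they were 0.23 over 16 variants and 0.11 over 6 main fragments. At 27 nt they were 0.33 over 14 variants and 0.38 over 7 main fragments. The single tested variants of 25, 26 and 33 nt had 0.47, 0.60 and -0.10. The single tested main fragments of 25, 26, 33 and 34 nt had 1.60, 2.09, 0.34 and 1.64, so those of 25, 26 and 34 nt lay above the main 32 nt median. Across all 2447 fragments the median was 0.05. Of the 116 variants, 1 passed, as given above.

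**Figure D5:**
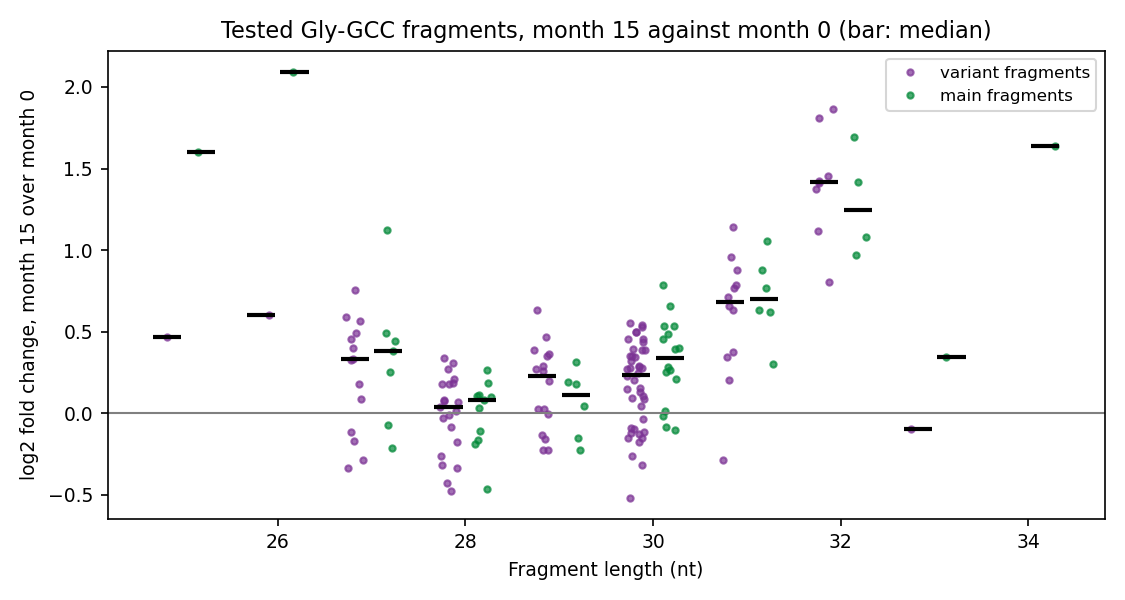
log2 fold change of each tested fragment at month 15 over month 0 by its length in nt, variants (left, purple) and main fragments (right, green), with black bars at the medians. Both sets lie near 0 at 28 nt and above it at 32 nt, with medians of 1.42 for the variants and 1.25 for the main fragments, and single main fragments of 25, 26 and 34 nt are also high, at 1.60, 2.09 and 1.64. Fragments with few counts may have passed the filter through their month 15 values.

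Month 15 was also set against the other later months. Against month 3, 6 variants were higher and 0 lower (all tested fragments, 11.1% called, 7.19% higher and 3.92% lower). Against month 6, 8 were higher and 3 lower (26.6% called, 17% higher and 9.52% lower), and against month 9, 10 were higher and 0 lower (30.6% called, 18.2% higher and 12.4% lower). The share of variants called, 5.17%, 9.48% and 8.62%, was below that of all fragments in each of the 3 comparisons. DESeq2 called 8, 19 and 15 variants (6.9%, 16.4% and 12.9%), where it called 21.2%, 34.2% and 37% of all fragments. The edgeR counts changed when libraries or single animals were left out. With the month 15 draws of PA8001 and of PA8003 both left out they were 0, 1 and 0. Leaving out single animals, the count against month 3 was 2 without PA8001, 1 without PA8003 or PA8915 and 0 without PA8873 or PA8914. Without PA8003 it was 4 against month 6 and 3 against month 9. The share of all fragments called in these fits is not given here, so the changes cannot be read as particular to the variants.

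The 32 nt form of the G5T sequence was the most abundant variant called there.
tRF-32-PNR8YP9LON4V3: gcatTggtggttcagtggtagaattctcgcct
It had 405, 325, 35.6, 119, 64.8, 262, 212 and 47.5 CPM at month 15 in PA8001, PA8003, PA8872, PA8873, PA8912, PA8914, PA8915 and PA8835. In the same animals it had 27.8, 41.7, 26.7, 62.0, 39.9, 62.8, 61.8 and 22.3 CPM at month 6, lower in 8 of 8. Means were 183.9 ± 138.7 CPM at month 15, against 55.1 ± 23.4 CPM at month 3, 43.1 ± 17.1 CPM at month 6 and 45.2 ± 21.4 CPM at month 9 (SD, n = 8 each). At month 0 the mean was 87.2 ± 46.2 CPM, above those of months 3, 6 and 9. Against month 0 the month 15 log2 fold change was 0.81 and did not pass. The log2 fold changes were 1.62, 1.96 and 1.97 against months 3, 6 and 9 (edgeR, adjusted p = 0.028, 0.0049 and 0.0054). Against month 6 it still passed with the month 15 draws of PA8001 and PA8003 left out, with a log2 fold change of 1.32 (adjusted p = 0.047).

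The other called variants that were higher at month 15 had fewer counts, and those low at earlier months may have passed the filter through month 15. tRF-32-PKR8YP9LON4V3 (T4G) was higher at month 15 by 1.89, 2.03 and 2.19 on the log2 scale against months 3, 6 and 9. Fragments tRF-32-PYR8YP9LON4V3 (A3C), tRF-32-PHR8YP9LON4V3 (T4C), tRF-32-P4R8YS9LON4V3 (A14C) and tRF-32-P4R84P9LON4V3 (T11C) passed in the same 3 comparisons, with log2 fold changes of 1.69 to 1.95. tRF-32-P4R88P9LON4V3 (T12C) passed against month 9 only, with 2.10. The remaining 3 called as higher were named after their values were seen: tRF-32-04R8YP9LON4V3 (G1A), with 1.39 and 1.76 against months 6 and 9, the 25 nt form of the G5T sequence, tRF-25-PNR8YP9LON, with 1.21 and 1.12 against the same months, and tRF-31-PKR8YP9LON4VD (T4G), with 1.17 against month 9. The main 32 nt counterpart tRF-32-P4R8YP9LON4V3 passed in the same 3 comparisons, with 2.01, 2.06 and 2.38.

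The 3 variants lower at month 15 than at month 6 are 28 nt forms that had 1 changed base near the 5' end. tRF-28-84R8YP9LOND5 (G1T) had a log2 fold change of -0.95 (adjusted p = 0.024), tRF-28-Q4R8YP9LOND5 (A3G) of -0.94 (adjusted p = 0.026) and tRF-28-04R8YP9LOND5 (G1A) of -0.94 (adjusted p = 0.027). Each was lower in 7 of 8 animals. tRF-28-04R8YP9LOND5 had 26.0 ± 12.5 CPM at month 15 and 49.9 ± 27.6 CPM at month 6 (SD, n = 8 each). The main fragment of the same length, tRF-28-P4R8YP9LOND5, had -0.50 and did not pass (adjusted p = 0.323). All 11 tested main fragments of 28 nt were lower at month 15 than at month 6, however, with a median of -0.73, and 3 of the 54 main fragments were called lower, against 3 of the 116 variants.

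With all lengths of a start summed, no variant start was called. Fragments of 32 nt, the length of most variants called higher, held 1.49% of PNR8YP counts and 1.99% of those of the other 45 starts. Fragments of 30 nt held 79.6% and 71.6%. The sums therefore mostly describe the 30 nt form and do not bear on the 32 nt calls. In the table of 622 starts of 25 to 36 nt fragments, 31 of the 46 variant starts were tested and 0 passed in edgeR in any of the 7 comparisons, where 0%, 0%, 0.161% and 1.93% of all starts were called at months 3, 6, 9 and 15 against month 0, and 1.93%, 5.95% and 7.56% at month 15 against months 3, 6 and 9. At an unadjusted p under 0.05, 2, 15 and 4 of the 31 variant starts stood at months 3, 6 and 9 against month 0, of 16, 72 and 37 among all 622. At month 15 there were 4, 1, 1 and 6 variant starts against months 0, 3, 6 and 9, of 80, 116, 174 and 174 among all. DESeq2 and limma-voom also called 0 variant starts, where they called up to 102 and 59 of all starts in a comparison. PNR8YP had 6054 ± 3431 CPM at month 15 and 5581 ± 3227 CPM at month 0 (SD, n = 8 each), a log2 fold change of 0.04 ± 0.40 (SE, adjusted p = 0.9999). PYR8YP had 201 ± 78.8 CPM at month 15 and 148 ± 64.2 CPM at month 0, with 0.52 ± 0.23 (adjusted p = 0.301).

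Whether a variant moved apart from its main counterpart was asked directly. For 19 variant fragments with at least 5 counts in every library, the log2 ratio to the main fragment of the same length was compared between each later month and month 0 with an exact two-sided sign-flip test over the 8 animals. None of the 76 exact tests passed (smallest exact p = 0.0156, smallest adjusted p = 0.349), and 8 animals allow no p below 0.00781, so that 12 tests at that value would be needed for any to pass. For the 5 ratios with PNR8YP the medians of the mean differences were -0.51, -0.71, -0.43 and -0.32 at months 3, 6, 9 and 15, and each was lower in 5 to 7 of 8 animals, without passing. For the 14 ratios of other starts they were -0.20, 0.06, -0.20 and -0.11, and the animals did not go 1 way: 7, 11, 11 and 11 of the 14 were higher than at month 0 in 4 or more of 8 animals. tRF-30-P4R88P9LON4V, for example, was higher in 5 of 8 animals at month 3, with a median ratio of 0.480% at month 3 and 0.406% at month 0. All 19 ratios come from the same libraries and 12 of the 14 have the same denominator, so a shift that they share is not a set of separate observations.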

How the data were processed

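Per the labels' protocols, total RNA from serum was isolated with a bead kit, an RNA integrity number of at least 7 was required, and adapters and molecular identifiers were added. The authors deposited whole-number counts per fragment sequence and library, unscaled. A deposited second table, of sequences, holds other, text values only. No source used here gives the aligner, the allowed mismatches or any collapse by molecular identifier, so base changes made in the RNA, the cDNA or the sequencer cannot be told apart. R 4.5.0, edgeR and limma are named in the submitters' processing notes. Lines without an ID (1614 of 60201, 0.0805% of counts) were left out.

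Counts were fitted with edgeR 4.0.16 (R 4.3.3, filterByExpr with a minimum count of 10, TMM, robust quasi-likelihood, animal block), per fragment and per start summed over 20 bases. Alternatives used DESeq2 1.42.0, limma 3.58.1, other scalings and filters, and left out libraries or animals. Deviations from month means had a mean correlation of 0.187 within animals and -0.0247 between animals, and the pairing comes from the baboon number in the labels. The script was tested on simulated data. Ratios to main fragments used a pseudocount of 0.5. Members and lists were chosen with earlier results of these data known. Named fragments are the most abundant of each of the 8 leading starts, those that passed or had the 3 smallest p-values against month 0, and the 5 largest called changes in each direction of month 15 against months 3, 6 and 9.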

Additional observations from a re-analysis of the deposited data

Results flagged for a closer look

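In 15 of 200 groups of 8 libraries examined, a single library lay far from the other 7, each time on the high side. The cut-off would be passed about 1 time in 20 by separate, normally distributed values. These groups share libraries and their values are skewed, so that rate cannot be set beside 15 of 200. Of the 15, 6 belong to the month 15 library of PA8872. There the summed starts PYR8YP, P4R84P, PKR8YP, P4R88P and PHR8YP reached 380.1, 338.4, 359.5, 272.5 and 257.1 CPM, against at most 208.6, 181.3, 164.2, 133.8 and 141.4 CPM in the other animals, and tRF-30-PKR8YP9LON4V reached 224.9 CPM, against at most 131.4 CPM.

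PA8001 had 5. PNR8YP was at 63.2% of the main start at month 6 and 79.4% at month 9, 04R8YP was at 9.36% at month 0, the summed single-base changes were at 18.7% at month 0, and tRF-31-0NR8YP9LON4VD was at 3.69 CPM at month 3. The month 3 library of PA8912 had 3: 568.4 CPM for the 04R8YP start, 398.9 CPM for tRF-30-04R8YP9LON4V and 14.0 CPM for tRF-28-84R8YP9LOND5. In PA8872 at month 9, tRF-31-0NR8YP9LON4VD was at 4.40 CPM, against at most 2.17 CPM in the other animals.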

How the results depend on the processing

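For the 7 comparisons of single fragments, counts of variants called moved under these settings. DESeq2 called 5 in the contrast of month 6 with month 0, and at month 15 it called 3 against month 0 and 19 against month 6 (2.59% and 16.4% of variants, where it called 6.17% and 34.2% of all fragments). Scaling by library totals gave 0, 2 and 7 at month 15 against months 0, 3 and 6, and no filter on low counts gave 0, 0 and 2. Leaving out the month 15 draws of PA8001 and of PA8003 left 0, 0, 1 and 0 at month 15 against months 0, 3, 6 and 9, and leaving out the smallest library, month 0 of PA8001, left 0 against month 0. Leaving out 1 animal at a time gave 0 to 1, 0 to 7, 4 to 16 and 3 to 14 variants at month 15 against months 0, 3, 6 and 9. Against month 0 the call was lost without PA8001, PA8003, PA8873, PA8912 or PA8914. Against month 3 the count was 2, 1, 0, 0 and 1 without PA8001, PA8003, PA8873, PA8914 and PA8915, and without PA8003 it was 4 against month 6 and 3 against month 9. With no replicate block the counts were 1, 6, 9 and 9 in the same 4 comparisons. Except for DESeq2, the share of all fragments called under these settings is not given here. The counts therefore do not show whether variants moved more than fragments at large. The causes were not tested, except that no filter raises the number of fragments tested and leaving out libraries lowers their number. Starts called were 0 in every comparison under each alternative run. Ratios passing were also 0 under each, which says nothing about stability in a design of 8 animals, where 12 of the 76 tests at the smallest possible p would be needed for any to pass. For the fragments named, 382 of 480 values under alternatives kept their side of the threshold, 93 lost it and 5 gained it, with no change of direction. Depth limits the variants with few counts, such as tRF-31-0NR8YP9LON4VD with 239 and tRF-32-PHR8YP9LON4V3 with 288 over the 40 libraries.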
